A study of Saccharomyces cerevisiae with 8 samples.

Results

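The comparison set 2 of the 8 arrays of the series against each other: spo11Y135F at 4 h and rad50delta at 4 h after transfer to sporulation medium, chosen by the strain and hour in their titles. The series holds 4 diploid Saccharomyces cerevisiae strains of the SK1 background, each with 1 array at 0 h and 1 at 4 h. They are the wild type (MJL1720), mre11delta (YMD1599), rad50delta (RKD101) and spo11Y135F (RKD1312). Cells grew in a buffered presporulation medium with acetate, were moved to potassium acetate medium for sporulation at 4 h, and were frozen. Both strains compared here carry a mutation that blocks meiotic double-strand breaks. In rad50delta the gene is deleted, and in spo11Y135F the catalytic tyrosine of Spo11 is replaced while the gene stays in place. RNA of both strains was extracted at both hours with glass beads and RNeasy columns and polyadenylated RNA was selected. The labels give 1 strain name for each genotype. The sources used here do not say whether both copies of each gene were mutated or which auxotrophic markers each strain carries. No array was repeated, so no value below has an error of its own and no difference at 4 h has a p-value.

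In budding yeast, starvation in acetate activates IME1 and IME2, which turn on the early genes of premeiotic replication, chromosome axes and recombination. Spo11 cuts the DNA, and the complex of Mre11, Rad50 and Xrs2 is needed both to make these breaks and to trim them. Exit from meiotic prophase depends on Ndt80, a transcription factor that turns on the middle genes, among them B-type cyclins, the polo kinase Cdc5 and genes of spore formation. The anaphase-promoting complex, a ubiquitin ligase, then drives both meiotic divisions.

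Signals are the deposited MAS5 intensities on a linear scale. Differences were taken between values of log2(signal + 7) as spo11Y135F minus rad50delta, and the difference of the median gene was subtracted. This quantity is called the relative difference below, and a value of 1 is a 2-fold higher signal in spo11Y135F than in rad50delta after that centring. A gene was tested where its signal averaged at least 21 over the 8 arrays, which left 5475 genes. It was counted as higher or lower at a relative difference of at least 2-fold with a signal of at least 21 on the higher array. As deposited, the difference of the median gene was -0.304 in log2 at 4 h and 0.397 at 0 h. The median signal of all probe sets was 176 in rad50delta, 134.5 in spo11Y135F and 97.3 in wild type at 4 h. Signals and summed signals given below for any array are as deposited, without centring. Of the tested genes, 98.6% and 97.0% had a signal of at least 21 on these arrays. Bacterial spike controls averaged 1587 on both arrays. The ratio of the 3′ to the 5′ probe set of actin, a measure of RNA integrity, was 1.54 in rad50delta and 1.72 in spo11Y135F, and that of SPT15 was 2.23 and 2.02. The 10 ribosomal RNA control sets had a median signal of 119 in rad50delta and 277 in spo11Y135F, with a median relative difference of 1.27, and all 10 lay above the median gene. The part of ribosomal RNA in the differences below was not tested. In a bulk culture, fewer cells of a kind and less RNA per cell cannot be told apart.

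At 4 h, 1146 of the 5475 genes, 20.9%, differed by at least 2-fold between spo11Y135F and rad50delta. The split was 584 genes higher in spo11Y135F (10.7%) and 562 lower (10.3%). Without the centring on the median gene it was 285 higher and 1040 lower. At 4-fold, 36 genes were higher (0.658%) and 43 lower (0.785%). Between the 0 h arrays of the same strains 247 genes differed by at least 2-fold (4.51%), with 102 higher (1.86%) and 145 lower (2.65%), and at 4-fold 3 were higher (0.0548%) and 23 lower (0.42%). The standard deviation of the relative difference over genes was 0.81 at 4 h and 0.52 at 0 h. In 262 genes with at least 2 usable probe sets, the sets of a gene differed with a standard deviation of 0.43 at 4 h. This spread lies within the same 2 arrays and holds no variation between hybridizations, extractions or cultures. The signs of the sets disagreed in 82 of these genes and in 7 of the 59 that were called.

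Most of the genes past 2-fold at 4 h were not past 2-fold before sporulation, which also held for most tested genes. Of the 584 genes higher at 4 h, 14 were also at least 2-fold higher at 0 h. That is 2.40% of the 4 h genes and 13.7% of the 0 h genes. Another 18 of the 584 (3.08%) were at least 2-fold lower at 0 h. Of the 562 genes lower at 4 h, 16 were also lower at 0 h (2.85% and 11.0%) and 14 were higher (2.49%). Of all tested genes, 1.86% were higher and 2.65% lower at 0 h. The shares of 2.40% and 2.85%, and those of 3.08% and 2.49% in the opposite direction, lay near the background. The relative difference at 0 h had the same sign as at 4 h in 273 of the 584 and 262 of the 562. Levels over all 8 arrays were compared relative to the median gene of each array. On that scale spo11Y135F at 4 h was highest in 437 of the 584 higher genes and lowest in 442 of the 562 lower genes. Among all tested genes it was highest in 1196 and lowest in 1534. The 584 genes had a median signal of 91.0 in wild type, 319 in rad50delta and 718 in spo11Y135F at 4 h. The 562 genes had a median signal of 347, 463 and 139 on the same arrays. The order of rad50delta and spo11Y135F in these medians is set by the choice of the genes. That choice also favours spo11Y135F at 4 h as the highest or lowest array, so the 437 and 442 genes are no separate result.

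**Figure D1:**
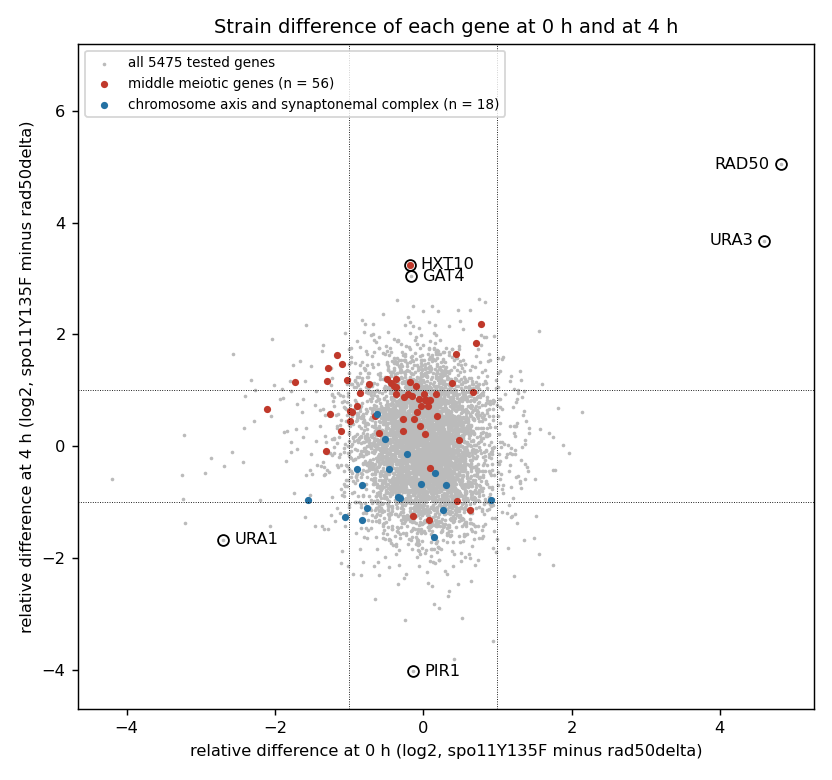
Relative difference between spo11Y135F and rad50delta (log2) at 0 h on the horizontal axis and at 4 h on the vertical axis, 1 point per tested gene, with dotted lines at 2-fold. The cloud is wider along the vertical axis (standard deviation 0.81 against 0.52), and RAD50 and URA3 stand apart at both hours.

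The mutated genes were read first. RAD50 (YNL250W, chromosome XIV), an ATPase of the break complex, was at 0.6 in rad50delta at 0 h and at 3.4 at 4 h. In spo11Y135F it was at 276 and 272, and in wild type at 4 h at 433. By the probe set read here, the rad50delta arrays were thus the ones without RAD50 signal, with relative differences of 4.82 at 0 h and 5.05 at 4 h. Of the 5 further probe sets of RAD50, all under 21 in rad50delta at 4 h, 1 reached 46.1 in spo11Y135F. The other 4 stayed under 21. The gene-specific set among the 5 had the reverse order, with 37.7 in rad50delta and 6.1 in spo11Y135F at 0 h. At 4 h that set had 14.8 and 0.5 (-1.235). SPO11 (YHL022C, chromosome VIII) had signals of 1.5 and 1.7 at 0 h in rad50delta and spo11Y135F, and 469 and 94.2 at 4 h. Wild type had 349 and mre11delta 322 at 4 h. Of the arrays at 4 h, that of the strain with the point mutation had the lowest SPO11 signal, at a relative difference of -1.93. A point mutation need not change this signal, so the value checks no label. MRE11 had signals of 192 and 99.3 in rad50delta and spo11Y135F at 4 h (-0.60) and XRS2 had 114 and 52.9 (-0.71), both short of 2-fold. Of the 6 neighbours of RAD50 up to the third gene on each side, only TEX1, of an mRNA export complex, passed 2-fold, at 122 in rad50delta and 2.3 in spo11Y135F (-3.49).

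Of the genes of pyrimidine synthesis read here, URA3, URA1 and URA4 passed 2-fold at both hours. URA3, the orotidine decarboxylase used as an auxotrophic marker, had signals of 4.4 and 2.5 in rad50delta at 0 h and 4 h, and 357 and 91.3 in spo11Y135F. Its relative difference was 4.60 at 0 h and 3.68 at 4 h. URA1, which encodes dihydroorotate dehydrogenase, went the other way, with signals of 6004 in rad50delta and 1215 in spo11Y135F at 0 h and 1146 and 285 at 4 h (-2.70 and -1.68). URA4, encoding dihydroorotase, had 1618 and 774 at 0 h and 461 and 133 at 4 h (-1.45 and -1.44). URA10, an orotate phosphoribosyltransferase isoenzyme, differed only at 4 h by the 2-fold rule, with 255 in rad50delta and 42.6 in spo11Y135F (-2.10) against 0.15 at 0 h. HIS4 and TRP1 showed the reverse timing. HIS4 was at 1323 in rad50delta and 220 in spo11Y135F at 0 h (-2.95) but at 337 and 192 at 4 h (-0.48). TRP1 was at 619 and 2758 at 0 h (1.75) and at 748 and 677 at 4 h (0.16). LEU2 was at 1909 and 549 at 4 h (-1.48), LYS2 at 800 and 1067 (0.72) and ARG4 at 1706 and 2370 (0.78). Over the 18 marker genes, 3 were higher (16.7%, against 10.7% of all tested genes), 5 lower (27.8%, against 10.3%), and the median was -0.39.

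Most regulators of meiotic entry stayed within 2-fold between both arrays. IME1, the master regulator, had a signal of 10131 in rad50delta and 5900 in spo11Y135F at 4 h (-0.48). IME2, its kinase partner, had 3215 and 2361 (-0.14). Of the 17 tested genes of meiotic entry, 1 was higher and 1 lower (5.88% each), with a median of -0.16. The gene that was higher is NDT80, at 936 in rad50delta and 1689 in spo11Y135F (1.15), against 115 and 134.5 at 0 h and 226 in wild type at 4 h. The gene that was lower is MDS3, a negative regulator of early meiotic genes, at 209 and 68.2 (-1.22).

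The axis and cohesin genes past 2-fold were all lower in spo11Y135F. Of 18 genes of the chromosome axis and synaptonemal complex, 5 were lower by at least 2-fold (27.8%) and none higher, 16 lay below the median gene, and the median was -0.80. As deposited 9 were lower. SPO13, which keeps sister centromeres together in the first division, had 1945 in rad50delta and 508 in spo11Y135F (-1.62), with 1318 in wild type at 4 h. HOP1, an axis protein, had 990 and 317 (-1.32), with 822 in wild type. RED1, its axis partner, had 578 and 190 (-1.27), with 590 in wild type. For all 3 genes spo11Y135F had the lowest signal of the 4 h arrays. CSM4, needed for telomere-led chromosome movement, had 718 and 258 (-1.15). ZIP1, the central element protein, had 563 and 231 (-0.95), and REC8, the meiotic kleisin, had 2046 and 1021 (-0.69), both short of 2-fold. The exception above the median gene with the largest value was MAM1, of the monopolin complex, at 2032 and 2454 (0.58).

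The 10 cohesin subunits and loaders all lay below the median gene, 3 of them by at least 2-fold (30.0%), with a median of -0.92, while at 0 h the median was -0.57. As deposited 7 were lower. SCC2, the cohesin loader, had 538 in rad50delta and 171 in spo11Y135F (-1.31). SMC1, a core ATPase subunit, had 505 and 195 (-1.03). RAD61, which releases cohesin, had 46.5 and 13.9 (-1.05). With a pseudocount of 30, SMC1 was at -0.985 and RAD61 at -0.54, both short of 2-fold, and SCC2 at -1.24. MCD1, the mitotic kleisin, was under 21 on both arrays.

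Among the 10 tested genes of break formation, 4 were lower (40.0%, against 10.3% of all tested genes) and 1 higher. The median was -0.68. The gene that was higher is RAD50 itself. Besides SPO11, REC114 had 545 in rad50delta and 159 in spo11Y135F (-1.43), MEI4 had 192 and 60.0 (-1.27) and REC102 had 1015 and 368 (-1.14). These 3 encode proteins that Spo11 needs to cut. Their signals in spo11Y135F lay below those of wild type, which were 374, 213 and 1067. At 0 h REC114 had 13.9 and 3.7 and MEI4 18.4 and 4.1, all under 21.

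Genes of strand exchange and crossover formation had a median of -0.37, with 5 of 25 lower and 1 higher. MND1, an accessory factor of the recombinase Dmc1, had 83.1 in rad50delta and 14.6 in spo11Y135F (-1.76). HFM1, the crossover helicase also called MER3, had 596 and 165 (-1.50). MSH4 had 1554 and 577 (-1.11) and TOP3, a topoisomerase, 142 and 48.4 (-1.12). DMC1 itself had 5057 and 3098 (-0.40). The gene that was higher is YEN1, a resolvase active late in meiosis, at 58.4 and 114.5 (1.20). MER1, a meiotic splicing factor that acts on HFM1 among others, had 329 and 100 (-1.34). NAM8, which acts with it, had 492 and 828.5 (1.05), in the opposite direction.

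Of 46 genes of premeiotic replication 6 were lower and none higher, and the median was -0.20. The share that was lower, 13.0%, was near the 10.3% of all tested genes, and as deposited 11 were lower. POL2, the catalytic subunit of DNA polymerase epsilon, had 585 in rad50delta and 89.9 in spo11Y135F (-2.31). Of its 8 further probe sets, 7 were also at least 2-fold lower, but these are shared rather than gene-specific sets. The gene-specific further set was under 21 on both arrays, at 1.7 and 0.9 (0.165). CTF4 had 99.1 and 29.2 (-1.25) and CDC45, of the replicative helicase, 82.3 and 24.1 (-1.22). RFA3, a subunit of the single-strand binding protein, had 2434 and 879 (-1.16). The 5 tested histone genes had a median of 0.34 and none passed 2-fold.

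The middle genes past 2-fold were mostly higher. Of 56 tested, 19 were higher in spo11Y135F (33.9%, against 10.7% of all tested genes) and 3 lower (5.36%), 50 lay above the median gene, and the median was 0.84, against -0.20 at 0 h. As deposited 7 were higher and 4 lower, with a median of 0.53. CLB3, a B-type cyclin, had 1164.5 in rad50delta and 2981 in spo11Y135F (1.66), with 161 in wild type at 4 h. CLB6, an S-phase cyclin, had 172 and 446 (1.64). Cyclin CLB1 had 1607 and 2865 (1.14), with 40.0 in wild type. The polo kinase gene CDC5 had 4311 and 5054 (0.53), short of 2-fold, with 619 in wild type. In CLB3, CLB1 and CDC5, wild type had the lowest and spo11Y135F the highest of the 3 signals.

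HXT10, a hexose transporter counted among the middle genes, had the largest difference of the list, with 106 in rad50delta, 868 in spo11Y135F (3.25) and 2.7 in wild type at 4 h. RMD1 had 12.4 and 64.6 (2.19) and OSW7 204 and 608 (1.85). SMA1, needed for the prospore membrane, had 1689 and 3783 (1.46), with 68.1 in wild type. The 3 genes that were lower are GIP2, SPO1 and GPA2. GIP2, a targeting subunit of a protein phosphatase, had 847 and 270 (-1.32). SPO1, a phospholipase-like protein of spindle pole duplication, had 1126 and 409 (-1.14). GPA2, a G protein subunit that entered the list through an older symbol, had 557 and 186 (-1.25).

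Of 35 spore wall and late genes 10 were higher (28.6%) and 1 lower, with a median of 0.65. As deposited 3 were higher and 1 lower, and after quantile normalization 6 and 2. The list shares 10 members with the middle genes. OSW1, of the outer spore wall, had 1291 in rad50delta and 2895 in spo11Y135F (1.46), with 72.8 in wild type at 4 h. DIT2, which makes dityrosine for the outermost wall layer, had 33.6 and 128 (2.03), with 2.2 in wild type. GAS4, a glucan elongase, had 5977 and 10793 (1.16), and SGA1, the sporulation glucoamylase, had 5549 and 9553 (1.09). The gene that was lower is SPS100, a late wall protein, at 160 and 41.5 (-1.48), which was also lower at 0 h, at 203 and 102 (-1.34).

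The anaphase-promoting complex had the highest median of the lists, 1.11, against -0.02 at 0 h. Of its 19 tested subunits, activators and substrates 11 were higher in spo11Y135F (57.9%), none was lower and 17 lay above the median gene. As deposited 6 were higher and 1 lower, with a median of 0.80. CDC20, the activator of anaphase, had 2155 in rad50delta, 4563 in spo11Y135F (1.38) and 112 in wild type at 4 h. CDC27, a core subunit, had 2326, 5019 (1.41) and 364. CDH1, a second activator, had 182, 412 (1.46) and 57.1. In each of these, the wild type had the lowest and spo11Y135F the highest of the 3 signals. ESP1, the separase, had 84.2 and 198 (1.47), AMA1, the meiosis-specific activator, 489 and 898 (1.17), and PDS1, the securin, 679 and 1055 (0.93). MND2, the subunit that restrains Ama1, had the lowest value of the list, with 610 and 247 (-0.97).

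**Figure D2:**
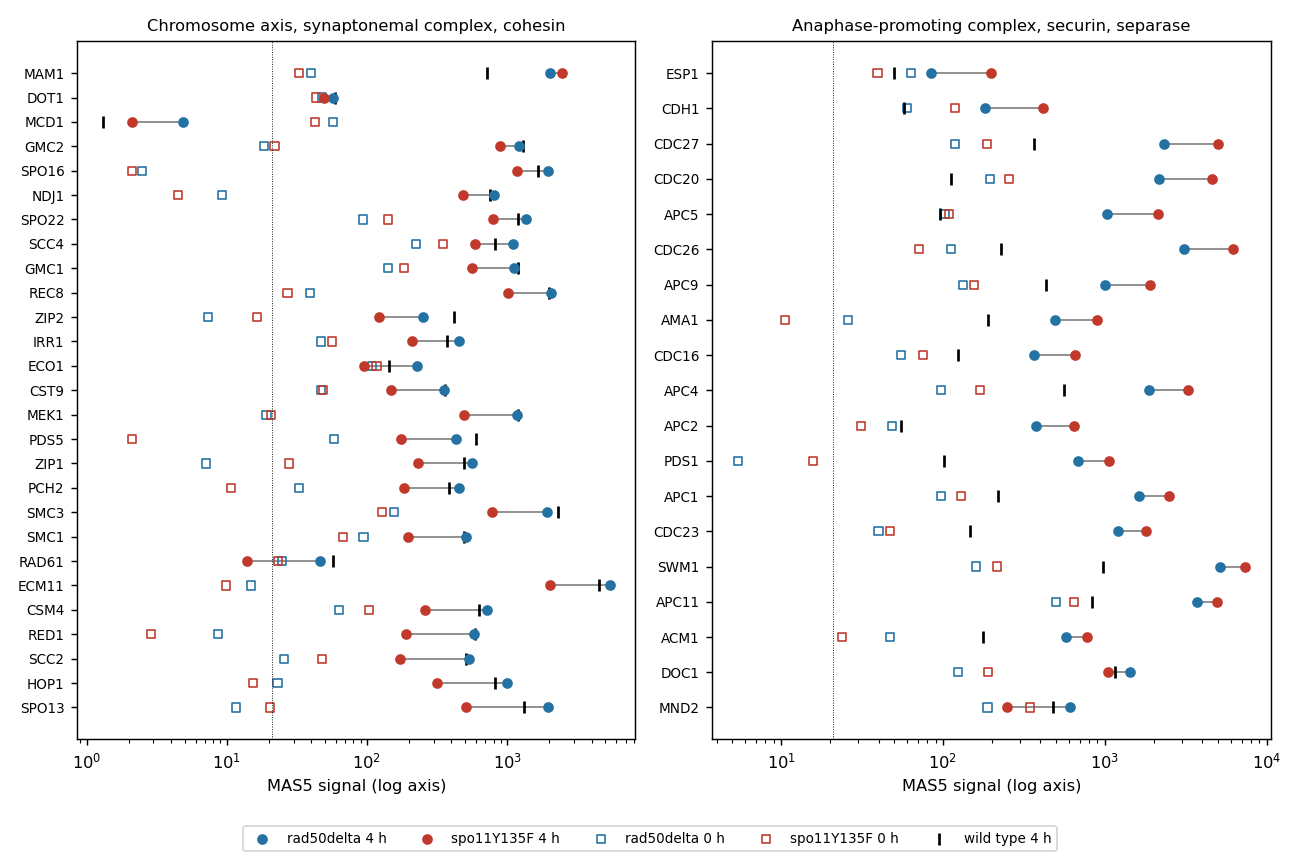
MAS5 signals (log axis) of each tested gene of the chromosome axis, synaptonemal complex and cohesin (left) and of the anaphase-promoting complex with its regulators (right), 1 row per gene. Filled circles are the 4 h arrays of rad50delta (blue) and spo11Y135F (red), open squares their 0 h arrays, ticks wild type at 4 h, and the dotted line marks a signal of 21. On the left the red circles lie left of the blue in all rows except MAM1. On the right they lie right of the blue except for DOC1 and MND2.

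The genes of mitotic G2/M past 2-fold were all higher. They share 2 members with the middle genes and 2 with the anaphase-promoting complex. Of 21 tested, 8 were higher (38.1%) and none lower, with a median of 0.87 and -0.17 at 0 h. As deposited 4 were higher and 1 lower. WSC4 had 194.5 in rad50delta and 752 in spo11Y135F (2.22), FKH1, a forkhead regulator of this cluster, 21.3 and 56.2 (1.46) and ASE1, which bundles spindle microtubules, 397 and 853 (1.39). The summed signal of the list was 12255 and 18866 in rad50delta and spo11Y135F. Of 50 kinetochore and spindle genes 7 were higher (14.0%) and 2 lower (4.00%), with a median of 0.31. As deposited 4 were higher and 5 lower, with a median of 0.005, so the balance turned. MPS1, a kinase of spindle pole duplication and the spindle checkpoint, had 630 and 1415 (1.46), and the kinesin KAR3 778 and 1631 (1.37). CTF19 was lower, at 69.2 and 1.7 (-2.83), and DAM1 at 126 and 31.6 (-1.48), while DSN1, also of the kinetochore, was at 208 and 433 (1.34).

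Markers of cells in other states did not all move one way. The G1/S and START genes had 3 higher (14.3%) and 6 lower (28.6%) of 21, a median of -0.43 and a summed signal of 6407 in rad50delta and 7271 in spo11Y135F. NRM1, a repressor of this cluster, was at 71.2 and 208 (1.76), and RNR1, a ribonucleotide reductase subunit, at 774.5 and 288 (-1.10). The daughter-specific genes of M/G1 had 1 higher (7.14%) and 5 lower (35.7%) of 14, a median of -0.59 and a summed signal of 4107 and 1296. PIR1, a cell wall protein, was in that sum with 1746 in rad50delta and 80.0 in spo11Y135F (-4.03). CTS1, the chitinase of cell separation, was at 426 and 106 (-1.63), and ASH1, a daughter-specific repressor, at 468 and 94.1 (-1.93). SUN4 was the only member under 21 on both arrays. The part of dividing cells in the differences was not tested.

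The mating-type and haploid-specific genes had 4 higher (17.4%) and 2 lower (8.70%) of 23, with a median of -0.11 and a summed signal of 7550 in rad50delta and 9337 in spo11Y135F. No member was under 21 on both arrays. Of the genes that were higher, both STE18, the G protein gamma subunit, at 368 and 1357 (2.17), and STE5, the scaffold of the kinase cascade, at 214 and 558 (1.66), belong to the pheromone pathway. HO, the mating-type switching endonuclease, was at 20.8 and 85.3 (2.04), and AXL1 at 202 and 332 (1.00). STE18 had signals of 19.3 and 4.6 at 0 h and 35.3 in wild type at 4 h. Its partner STE4, the beta subunit, was at 2458 and 3891 (0.97), while GPA1, the alpha subunit, was at 91.3 and 41.4 (-0.72). RME1, the repressor of IME1 in haploid cells, was at 200 and 31.0 (-2.14), and lower also at 0 h (-1.02). FUS1 was at 79.3 and 22.9 (-1.23). With genes of a mean signal under 70 left out, 14 members remained and the median was 0.74, and with a pseudocount of 30 it also turned positive.

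Ribosome biogenesis factors past 2-fold were mostly higher in spo11Y135F. Of 74 ribosome biogenesis factors 16 were higher (21.6%) and 3 lower, 60 lay above the median gene, and the median was 0.50, against 0.09 at 0 h. As deposited 9 were higher and 5 lower. CIC1, of large subunit assembly, had 377 in rad50delta and 1151 in spo11Y135F (1.90), with 79.0 in wild type at 4 h. ERB1, of the same process, had 505 and 1379 (1.74), with 82.8 in wild type. UTP15, of the small subunit processome, had 242 and 727 (1.86), with 43.4 in wild type, and NOP12 had 103 and 324 (1.89). The 3 genes that were lower are NOP53, at 56.8 and 12.1 (-1.44), SPB4, at 275 and 93.8 (-1.18), and LOC1, at 743 and 282 (-1.07).

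The subunits of RNA polymerases I and III had a median of 0.53, with 2 of 23 higher (8.70%) and none lower. RPA43, of polymerase I, was at 94.8 and 281.5 (1.81), and RPC82, of polymerase III, at 158 and 276 (1.08). The cytosolic ribosomal proteins had a median of 0.41 for 47 genes of the large subunit and 0.36 for 34 of the small subunit. Of them 1 and 2 (2.13% and 5.88%) passed 2-fold, RPL36A at 1629 and 2921 (1.14), RPS26B at 209 and 445 (1.37) and RPS28B at 3204 and 6677 (1.36). Shared probe sets stand for 13 and 15 of these genes, and their values are uncertain. The translation factors had a median of 0.41 with 1 of 29 higher (3.45%). In these 4 lists the share of higher genes lay below the 10.7% of all tested genes. As deposited, without centring, the medians of these lists were between 0.05 and 0.23. The mitochondrial ribosomal proteins, by contrast, were split, with 5 higher (7.81%) and 6 lower (9.38%) of 64. Their median of 0.02 turned negative as deposited.

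Of 34 sulfur assimilation and methionine genes 10 were higher (29.4%) and 2 lower (5.88%), at a median of 0.38. As deposited 7 were higher and 3 lower, with a median of 0.072. MHT1, which makes methionine from S-methylmethionine, had 23.1 in rad50delta and 138 in spo11Y135F (2.58). MUP3, a methionine permease, had 181.5 and 687 (2.18), with 38.2 in wild type at 4 h. MET31, a regulator of the pathway, had 236 and 739 (1.92), and MET16, which reduces activated sulfate, 136 and 384 (1.76). The 2 genes that were lower are SAM4 and JLP1. SAM4, another homocysteine methyltransferase, was at 37.0 and 4.8 (-1.59) and JLP1, a sulfonate dioxygenase, at 88.0 and 30.5 (-1.04). With a pseudocount of 30 SAM4 was at -0.684 and JLP1 at -0.703, both short of 2-fold.

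Amino acid synthesis under Gcn4 was split, with 4 higher (7.27%) and 8 lower (14.5%) of 55 and a median of -0.12. ILV5, of branched-chain synthesis, had 2266 in rad50delta and 6122 in spo11Y135F (1.74) and HIS1 587 and 1393 (1.54). LEU4, of leucine synthesis, was at 809 and 185 (-1.78), ARG1 at 872 and 194 (-1.82) and LYS20 at 1651 and 450 (-1.55). Nitrogen catabolite repressed genes had 2 higher (6.25%) and 6 lower (18.8%) of 32 and a median of -0.41. DAL4, the allantoin permease, was at 362 and 1342 (2.17), whereas UGA4, the GABA permease, was at 274 and 88.4 (-1.26) and GAP1, the general amino acid permease, at 339 and 110 (-1.26).

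**Figure D3:**
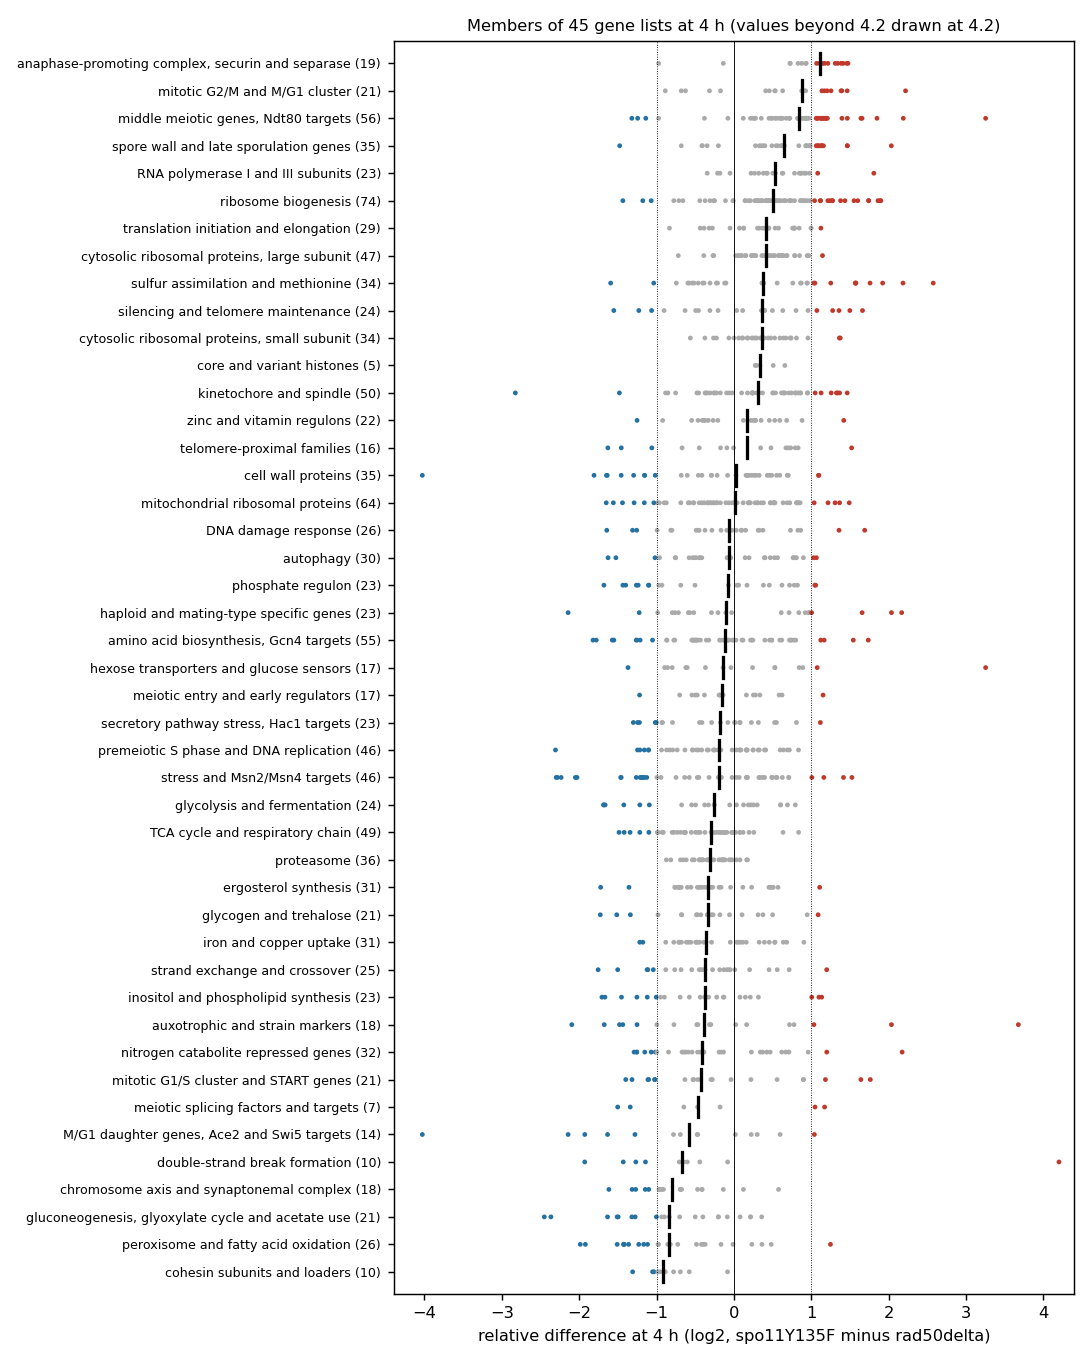
Relative difference at 4 h (log2, spo11Y135F minus rad50delta) of each tested member of 45 gene lists, 1 point per gene and 1 row per list, ordered by the median (black bar), with the number of tested members in brackets. Red and blue points lie at least 2-fold above and below the median gene. The anaphase-promoting complex is at the top with a median of 1.11 and cohesin at the bottom with -0.92.

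The genes of acetate use past 2-fold were all lower in spo11Y135F. Of 21 genes of gluconeogenesis, the glyoxylate cycle and acetate use 8 were lower (38.1%, against 10.3% of all tested genes) and none higher, 17 lay below the median gene, and the median was -0.84, against -0.09 at 0 h. As deposited 12 were lower. SFC1, the mitochondrial succinate-fumarate carrier, had 1058 in rad50delta and 151 in spo11Y135F (-2.45), with 1423 in wild type at 4 h. IDP2, the cytosolic isocitrate dehydrogenase, had 1233 and 188 (-2.37), with 1384 in wild type. YAT2, a carnitine acetyltransferase, had 2058 and 532 (-1.63), with 2386 in wild type, and CAT2, another, 2638 and 745 (-1.51), with 2350. Relative to the median gene of each array, the list had a median level of 3.81 in rad50delta and 2.71 in spo11Y135F. The highest value of the list was that of ICL1, the isocitrate lyase, at 5096 and 5289 (0.36). PCK1, the gluconeogenic carboxykinase, was at 6134 and 5757 (0.21, or -0.09 as deposited).

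Of 26 genes of the peroxisome and fatty acid oxidation 10 were lower (38.5%) and 1 higher, 22 lay below the median gene, and the median was -0.84, against 0.43 at 0 h. As deposited 16 were lower and none higher. FAA2, a fatty acyl-CoA synthetase, had 340 in rad50delta and 63.9 in spo11Y135F (-1.99). PEX21, of protein import into the peroxisome, had 258 and 49.6 (-1.92), and FOX2, an oxidation enzyme, 4118.5 and 1235 (-1.43). The gene that was higher is DCI1, at 94.0 and 187 (1.25). At 0 h FAA2 had 546 and 1063, so its order between the strains was reversed. Of 23 genes in the list of inositol and phospholipid synthesis 6 were lower (26.1%) and 3 higher (13.0%). The lower ones include the fatty acid synthase genes FAS1, at 1123 and 273 (-1.71), and FAS2, at 1422 and 357 (-1.67), and ACC1, the acetyl-CoA carboxylase, at 2637 and 775 (-1.45). The further probe sets of FAS1 and FAS2, 7 each, all had negative values, from -2.10 to -0.02 and from -1.51 to -0.15. Most of them are shared sets, and the gene-specific one was at -1.225 for FAS1 and -0.363 for FAS2.

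Energy genes had smaller medians. The TCA cycle and respiratory chain had a median of -0.29, with 5 of 49 lower and none higher. The share that was lower, 10.2%, was close to the 10.3% of all tested genes, and as deposited 13 were lower. SDH1, of succinate dehydrogenase, was at 2783 and 838 (-1.42), QCR2 at 2814 and 894 (-1.34) and ATP5, of the ATP synthase, at 1334 and 381 (-1.49). Glycolysis had 6 of 24 lower and none higher, with a median of -0.26. GPM1, the phosphoglycerate mutase, was at 7697 and 1933 (-1.69), TDH1 at 3441 and 862 (-1.68), ENO2 at 5220 and 1328 (-1.67) and PGI1 at 2898 and 870 (-1.42). Glycogen and trehalose genes had 3 lower (14.3%) and 1 higher (4.76%) of 21, with a median of -0.34, among them TPS2 at 1192 and 333 (-1.52) and GLG2 at 736 and 174.5 (-1.73). The 36 proteasome genes had none past 2-fold, but 32 of them lay below the median gene, with a median of -0.32.

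Stress genes were used here also as markers of starved cells that do not sporulate. Of 46 tested, 14 were lower (30.4%) and 4 higher, with a median of -0.20. Their summed signal was 108854 in rad50delta and 88399 in spo11Y135F. The sums are as deposited, a scale on which the median gene also was lower in spo11Y135F (-0.304 in log2). SIP18 and GRE1, hydrophilins of drying and salt stress, were at 2336 and 379 (-2.30) and at 458 and 70.5 (-2.28). TFS1, an inhibitor of a vacuolar protease, was at 1055 and 176 (-2.23), and GAD1, glutamate decarboxylase, at 577 and 107 (-2.05). SSA4, an inducible chaperone, was at 1719 and 4015 (1.52), HSP31 at 1910 and 3463 (1.16), and GPX2, a peroxidase, at 70.6 and 161 (1.42). The part of starved cells in the difference was not tested.

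Cell wall proteins had 9 lower (25.7%) and 2 higher (5.71%) of 35, at a median of 0.03 that turned negative as deposited, after quantile normalization and with a pseudocount of 30. PIR3 was at 3945 and 1015 (-1.65), PRY2 at 117 and 21.6 (-1.81) and PIR1 as above, while CIS3, another protein of the PIR family, was at 2547 and 4400 (1.09) and TIR2 at 912 and 1585 (1.10). The phosphate regulon had 7 lower (30.4%) and 2 higher (8.70%) of 23, with a median of -0.07. PHO5, the secreted acid phosphatase, was at 1074 and 325 (-1.40), VTC3, of polyphosphate synthesis, at 688 and 201 (-1.44), and PHO81, an inhibitor of the Pho85 kinase, at 2022 and 678 (-1.26). PHM8 and PHO86 were higher, at 787 and 1320 (1.05) and 832 and 1406 (1.06).

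Silencing and telomere genes were divided by member, 5 higher (20.8%) and 3 lower (12.5%) of 24 with a median of 0.36. As deposited 3 were higher and 4 lower, so the balance turned. HST4 and HST3, histone deacetylases of the Sir2 family, were at 828 and 2131 (1.66) and at 83.5 and 170 (1.28), and RIF1 was at 1349 and 3092 (1.50). HST2 was at 318 and 105 (-1.23), EST1 at 26.7 and 2.3 (-1.55) and CDC13 at 197 and 72.0 (-1.07). DNA damage genes had 2 higher and 3 lower of 26, a median of -0.06 and shares near the background. DIN7, a mitochondrial nuclease, was at 1274 and 3338 (1.69) and TEL1, the checkpoint kinase, at 660 and 1377 (1.36), whereas CHK1 was at 414.5 and 102 (-1.64) and DDC1, of the checkpoint clamp, at 271 and 87.0 (-1.26).

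The remaining lists are read against 10.7% of all tested genes higher and 10.3% lower. Ergosterol synthesis had 1 higher and 2 lower of 31 (median -0.34), iron and copper uptake 0 and 2 of 31 (-0.36), secretory stress 1 and 5 of 23 (-0.18, with 21.7% lower), autophagy 2 and 3 of 30 (-0.06), hexose transporters 2 and 1 of 17 (-0.14), zinc and vitamin genes 1 and 1 of 22 (0.17) and telomere-proximal families 1 and 3 of 16 (0.17, with 18.8% lower). The signs of the medians of zinc and telomere-proximal genes turned negative as deposited, and that of autophagy turned positive after quantile normalization. In all, 17 of the 45 lists with at least 5 tested members had a median above 0.

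**Figure D4:**
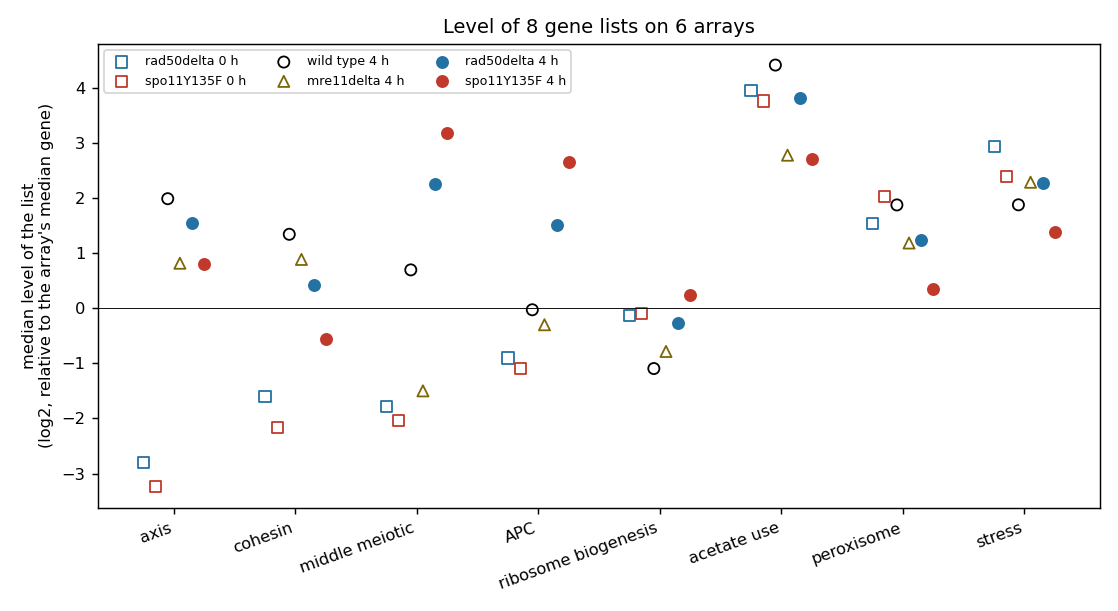
Median level of 8 gene lists (log2 of the signal plus 7, relative to the median gene of the same array) on 6 arrays, each point 1 array. Middle genes and the anaphase-promoting complex were at 3.17 and 2.66 in spo11Y135F at 4 h, above 2.25 and 1.51 in rad50delta and 0.70 and -0.03 in wild type. Axis, cohesin, acetate and peroxisome genes were lowest at 4 h in spo11Y135F, and stress genes lowest of the arrays shown. The mre11delta array had another RNA extraction.

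On the scale of levels within an array, middle genes had a median of 0.70 in wild type, -1.50 in mre11delta, 2.25 in rad50delta and 3.17 in spo11Y135F at 4 h. At 0 h they were at -1.78 in rad50delta and -2.04 in spo11Y135F. Both strains lay below their median gene before sporulation and above wild type at 4 h. The axis list was at 1.99, 0.82, 1.54 and 0.80 on the 4 h arrays in the same order, so that spo11Y135F and mre11delta lay together at the low end. Cohesin was at 1.34, 0.89, 0.42 and -0.56, and ribosome biogenesis at -1.09, -0.78, -0.26 and 0.24.

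Single genes with large differences lay on both sides. On the lower side TAF12, shared by TFIID and SAGA, was at 160 in rad50delta and 2.7 in spo11Y135F (-3.80), with 139 in wild type at 4 h. In TAF12 and TEX1 spo11Y135F was under 21, and with a pseudocount of 30 their values were -2.28 and -1.97. MNC1 was at 1079 and 95.1 (-3.11), with 1103 in wild type, and HEM2, of heme synthesis, at 807 and 91.6 (-2.74), with 504 in wild type. CUP2, the copper-sensing activator, was at 391 and 50.1 (-2.50). The wild-type signal at 4 h was above that of spo11Y135F in all 20 genes of this side. On the higher side GAT4, a GATA-family protein linked to spore wall assembly, was at 414 and 2802 (3.04), with 2.3 in wild type, and SRD1, of the same zinc-finger family, at 537 and 2735 (2.64), with 15.2 in wild type. HMS1, a helix-loop-helix protein, was at 147 and 763 (2.62), PRM2, of nuclear fusion in mating, at 233 and 1102 (2.51) and GPI8, of the enzyme that attaches GPI anchors, at 353 and 1549 (2.42). Of the 20 genes of the higher side, wild type lay below rad50delta by signal in 19, all except RAD50. The median signal of all tested genes at 4 h was also lower in wild type, at 193 against 357 in rad50delta (356.5 unrounded). The count does not correct for this.

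**Figure D5:**
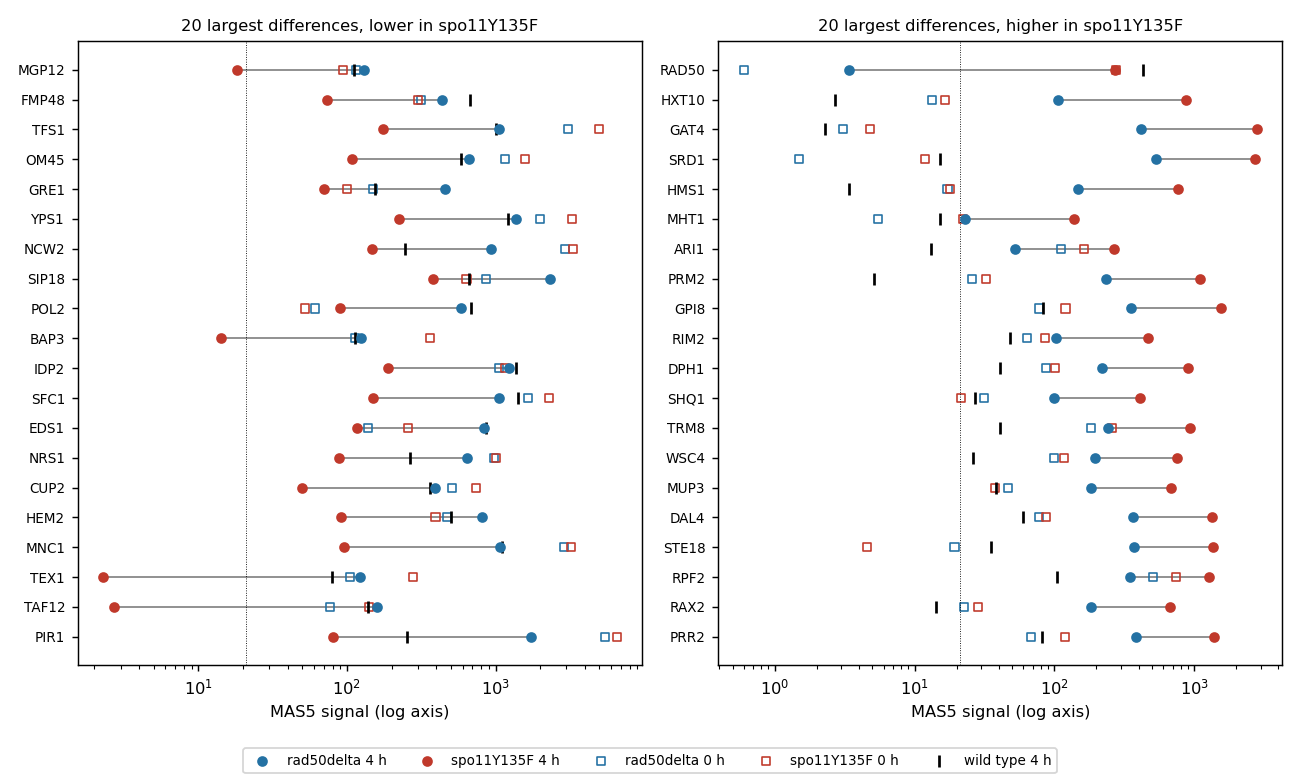
MAS5 signals (log axis) of the 20 named genes with the largest relative difference on each side, lower in spo11Y135F on the left and higher on the right. Filled circles are the 4 h arrays, open squares the 0 h arrays, ticks wild type at 4 h, and the dotted line marks a signal of 21. On the right, spo11Y135F at 4 h has the highest signal of the 8 arrays in 17 genes, and on the left the lowest in 15. The choice of the genes favours both counts.

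Open reading frames without a gene name were also on both sides. YGR067C was at 434.5 in rad50delta and 35.6 in spo11Y135F (-3.07), YGR026W at 291 and 57.4 (-1.91) and YER121W at 1490 and 327 (-1.86). YNR014W was at 351 and 1483 (2.36), YOR186W at 83.6 and 342 (2.25) and YHL017W at 251 and 856 (2.05). YNR014W had 50.4 and 45.0 at 0 h and 16.1 in wild type at 4 h, and YGR067C had 336 and 642 at 0 h. Of the genes that were higher 69 carry no symbol, and of those that were lower 38.

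The genes that differed were spread over the genome. Chromosome medians lay between -0.25 (chromosome III, 144 genes) and 0.09 (chromosome V, 261 genes), and as deposited all were negative. The share of genes that were higher ran from 8.73% on chromosome VIII to 14.7% on chromosome IX, and of those that were lower from 7.77% on chromosome XV to 14.2% on chromosome XI. The median gene length was 1305 bases for the genes that were higher, 1287 for those that were lower and 1230 for all tested genes. By signal, genes with a mean above 1000 were more often lower (12.1%) than higher (5.42%), and genes between 50 and 100 more often higher (11.7%) than lower (5.30%).

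In the same direction at both hours, 14 genes were higher and 16 lower, which is 2.40% and 2.85% of the 4 h genes. These shares lay near the 1.86% and 2.65% of all tested genes that were higher and lower at 0 h. Besides RAD50 and URA3, the higher ones were led at 4 h by ROG1, a lipase, at 248 in rad50delta and 860 in spo11Y135F (2.07), with 34.9 and 156 at 0 h (1.56). OPT1, an oligopeptide transporter, was at 170 and 426 (1.60), with 40.9 and 125.5 at 0 h (1.07), and MET2, of homocysteine synthesis, at 590 and 1428 (1.57), with 133 and 377 at 0 h (1.06). Besides RME1, the lower ones were led by RSO55, a mitochondrial protein, at 997.5 and 185 (-2.09), with 547 and 331 at 0 h (-1.11). NUC1, the mitochondrial nuclease, was at 255 and 74.7 (-1.38), with 92.8 and 7.2 at 0 h (-3.21).

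A difference common to both hours was the only one that could be tested, with strain and hour as terms over all 8 arrays in limma, at a Benjamini-Hochberg adjusted p of 0.05. It called 0 genes higher and 0 lower (0% each), and 31 genes had an unadjusted p under 0.05. The largest of these differences was that of RAD50, 4.94 ± 0.76 (SE), with an adjusted p of 0.999 in limma. URA3 differed by 4.14 ± 0.76 (SE), with the same adjusted p in limma. Even RAD50, deleted in rad50delta, was not called, so 0 calls do not show that the strains lack common differences. RAD50 was called when the arrays were not centred (adjusted p = 0.0145 in limma). Both genes were called when the 3 Trizol arrays were left out, with adjusted p of 0.000111 and 0.00192 in limma. The differences particular to 4 h are by construction part of the error of this fit.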

How the data were processed

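RNA of 4 strains at 0 h and 4 h was measured on single-colour Affymetrix YG-S98 arrays, 8 in all. The deposited values are MAS5 signal intensities on a linear scale, per the submitters' processing notes and the file headers. The sources used here do not give the MAS5 version or how the authors scaled the arrays. Per the labels' protocols, 3 arrays (wild type at 0 h, mre11delta at both hours) were extracted with Trizol and 5 with glass beads and RNeasy. The number of arrays limits the precision.

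Of 9335 probe sets, 6504 had 1 gene in the platform annotation, 328 several and 2503 none. Symbols were updated through the RefSeq table of assembly R64. A single probe set stood for each of 5656 genes, gene-specific before shared and then by the highest mean, and 211 genes had only a shared set. Values became log2(signal + 7), and the 5475 genes averaging at least 21 were tested. Where the lower array was under 21, which held for 19 of the genes that were higher and 53 of those that were lower, the size of a difference depends on the pseudocount. limma 3.58.1 in R 4.3.3 fitted strain and hour with a mean-variance trend, on values centred by the median gene of each array. All other steps used Python 3.11.15. The limma step was tested on simulated data for the strain difference over both hours with 5475 genes. It called 1 of 67 planted log2 differences of 1, 7 of 67 of 2 and 63 of 66 of 4. Of 5275 genes without a planted difference it called 4.

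The members, the 46 gene lists and the tests were chosen with earlier results of these data known, and the lists hold 1249 tested genes. The naming rule takes the 20 largest differences on each side with a symbol, a gene-specific probe set and a signal of at least 100, up to 4 members per list and side past 2-fold, 3 unnamed reading frames per side, genes called by limma, and 15 genes of break formation, meiotic entry and strain markers. It gave 235 genes, of which a part is printed. Markers of meiotic cells (REC8, ZIP1, DMC1) were also read. CDC5, CLB1, PDS1, MND2, MAM1, STE4, GPA1, MCD1, ICL1, PCK1 and the genes that differed at both hours were named after their values were seen. Alternatives were differences as deposited, quantile normalization, pseudocounts of 1 and 30, no floor and a floor of 70, shared sets left out, the mean over a gene's sets, and, for limma, no trend and fewer arrays.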

Additional observations from a re-analysis of the deposited data

Results flagged for a closer look

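For 9 of the named genes the difference at 4 h was at least 2-fold and the difference at 0 h at least 2-fold the other way. Over all tested genes, 18 of the 584 higher at 4 h (3.08%) were at least 2-fold lower at 0 h. Likewise 14 of the 562 lower at 4 h (2.49%) were at least 2-fold higher at 0 h. These shares lay near the 2.65% and 1.86% of all tested genes that were lower and higher at 0 h. Each strain has 1 array per hour, so the change of direction was not tested. Of the 9 named genes 5 were lower in spo11Y135F at 4 h. BAP3, a branched-chain amino acid permease, had signals of 113 in rad50delta and 362 in spo11Y135F at 0 h and 125 and 14.3 at 4 h (-2.33). ARG1, the argininosuccinate synthetase, had 699 and 2039 at 0 h and 872 and 194 at 4 h (-1.82). GIT1, a glycerophosphoinositol transporter, had 41.5 and 156 at 0 h and 230 and 52.8 at 4 h (-1.68). YAT2 had 310 and 1170 at 0 h and 2058 and 532 at 4 h (-1.63). GAP1 had 681 and 2592 at 0 h and 339 and 110 at 4 h (-1.26).

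The other 4 were higher in spo11Y135F at 4 h. SSA4 had 3017 in rad50delta and 1248 in spo11Y135F at 0 h and 1719 and 4015 at 4 h (1.52). ESP1 had 63.5 and 39.4 at 0 h and 84.2 and 198 at 4 h (1.47). AMA1 had 26.0 and 10.6 at 0 h and 489 and 898 at 4 h (1.17), and GAS4 had 68.3 and 23.0 at 0 h and 5977 and 10793 at 4 h (1.16). In ESP1, AMA1 and GAS4 the 0 h signals were below 70 in both strains, and ESP1 only just reached 2-fold at 0 h (-1.0).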

How the results depend on the processing

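No paired analysis was possible because the arrays carry no replicate numbers and each strain has 1 array at 4 h. The limma fit over both hours has the hour as a term. As deposited, 285 genes were higher and 1040 lower at 4 h, and a 4-fold threshold left 36 and 43. Counts of genes that differed at both hours, 14 higher and 16 lower, became 26 and 9 as deposited, 6 and 6 with a pseudocount of 30, and 9 and 9 with a floor of 70. The median of the mating-type list moved from -0.11 to 0.738 with a floor of 70, where 14 members remained. limma called 1 gene higher as deposited, 2 with only the 4 arrays of both strains and 2 without the 3 Trizol arrays, the last 2 fits with 1 residual degree of freedom. Of 360 alternative list medians the other 359 moved by less than the spread between probe sets of a gene, as did all 128 chromosome medians. Of the alternative values of named genes 35 moved further and 1825 did not. Among them TRP1, which was short of 2-fold, changed sign, and none past 2-fold did. With 1 array a side, neither the extraction of a culture nor its progress through sporulation is averaged, and low signals leave only bounds.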
